A study of Saccharomyces cerevisiae with 6 samples.

Results

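The 10 genes described here encode enzymes of the mitochondrial citric acid cycle of the budding yeast *Saccharomyces cerevisiae*. They were chosen by name, as *CIT1*, *ACO1*, *IDH1*, *IDH2*, *KGD1*, *KGD2*, *LSC1*, *LSC2*, *FUM1* and *MDH1*, and all 10 were found among the 5296 named genes of the deposited table. The study sequenced poly(A) RNA from 3 *SPO11* cultures and 3 *spo11-YF* cultures taken 4 h into meiosis, to ask how meiotic DNA breaks change gene expression. *SPO11* cells make the breaks that start meiotic recombination. The *spo11-YF* allele has phenylalanine in place of the tyrosine that cuts DNA and also carries an HA tag and the *URA3* marker, and cells with it form no breaks. Both strains are diploids of the SK1 background, which sporulates efficiently, and each genotype comes from 1 strain. Both lack the transcription factor gene *NDT80* (*ndt80Δ::TRP1*), without which they stay arrested before the exit from prophase. Both also lack *PPH3* (*pph3Δ::LEU2*), which encodes the catalytic subunit of a phosphatase, and carry *ho::LYS2*. By the account of the study, the *SPO11* strain carries more copies of *LEU2* than the *spo11-YF* strain. Cells were grown in a rich premeiotic medium with acetate and then moved to SPO medium, in which acetate is the carbon source. The sample labels give no time, and the 4 h come from the methods of the study.

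The citric acid cycle oxidises the acetyl group of acetyl-CoA to carbon dioxide in the mitochondrial matrix and passes the electrons to the respiratory chain. Yeast represses many of its genes on glucose and induces them when it grows on acetate or ethanol. Sporulation on acetate is known to need respiration, and acetate is turned into acetyl-CoA before it can enter the cycle. The transcription factor complex of Hap2, Hap3, Hap4 and Hap5 and the retrograde regulators Rtg1, Rtg2 and Rtg3 are known activators of genes in the cycle.

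The value used for each gene is the authors' mean of normalized counts over all libraries, *SPO11* and *spo11-YF* together. It is 1 number per gene. The levels below therefore describe both strains pooled, carry no replicate error, and cannot show a difference between *SPO11* and *spo11-YF* cells. To compare genes, each mean was divided by the coding length of the gene in kilobases. The sum of the means over all named genes was 2759063 normalized counts, and the depth of each library is unknown. The median gene had 218.9 normalized counts, or 165.0 per kb. The lowest of the 5296 named genes had 8.21 normalized counts, so genes below that level take no part in the median or the percentiles. Because the RNA came from whole cultures, more cells of a kind and more RNA per cell cannot be told apart.

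The prophase arrest described by the study was set against marker genes. All 10 early meiotic genes listed had a row, with levels between 905.7 (*SPO11*) and 7007 (*DMC1*) normalized counts per kb. Each of the 10 lay above the median gene. Of 9 mid-meiotic genes that depend on Ndt80, 8 had a row, and these 8 lay below the median gene, between 16.8 (*CLB1*) and 164.6 (*SPR3*) normalized counts per kb, against 165.0 for the median gene. Without division by length, 7 of the 8 lay below the median gene, and *SPR3* was above it. The deleted genes *NDT80* and *PPH3* have no row among those analysed here, and *NDT80* is the listed mid-meiotic gene without a row. As both strains lack *NDT80*, low levels of genes that depend on it cannot by themselves show the stage.

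The genes of the cycle were among the most abundant messages of these meiotic cells. Together the 10 genes held 48229 of the summed normalized counts, which is 1.75% of the total for 0.189% of the named genes. Their median level was 3142 normalized counts per kb, 19.0 times the median gene. The lowest of the 10, *KGD1*, was still 6.17 times the median gene, and the highest, *CIT1*, was 45.2 times the median gene. Of the 10 genes, 9 lay among the highest 5% of all genes, a limit of 1245 normalized counts per kb, and 8 were among the 100 highest per kb. Without division by length, *KGD1*, *KGD2*, *LSC1* and *MDH1* lay outside the 100 highest, at ranks 113, 128, 112 and 111. On that scale all 10 lay among the highest 5%.

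**Figure D1:**
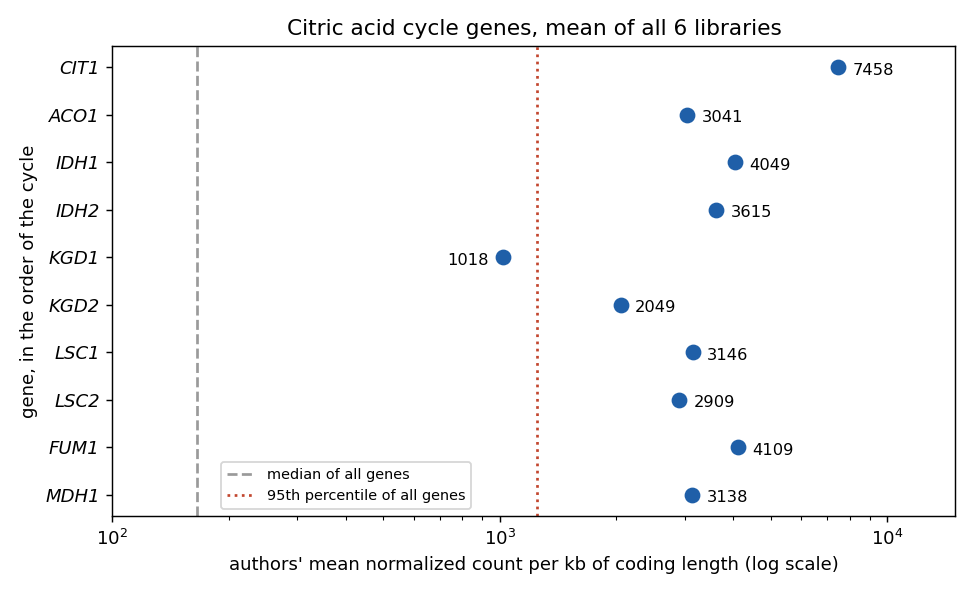
Level of each of the 10 citric acid cycle genes, as the authors' mean normalized count per kb of coding length over all 6 libraries (log scale), in the order of the cycle from top to bottom. Each point is 1 gene without an error; the dashed line is the median of all genes (165.0) and the dotted line their 95th percentile (1245), which 9 of the 10 genes exceed.

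*CIT1* (YNR001C) encodes mitochondrial citrate synthase, which joins acetyl-CoA and oxaloacetate and so brings carbon into the cycle. It had a mean of 10740 normalized counts over a coding length of 1440 bases. This is 7458 normalized counts per kb, the highest level of the 10 genes and rank 14 among all genes with a coding length. The level per kb of *CIT1* was 1.82 times that of *FUM1*, the next gene in the order.

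*ACO1* (YLR304C) encodes aconitase, the iron-sulphur enzyme that turns citrate into isocitrate and also binds mitochondrial DNA. Its mean of 7108 normalized counts was the second highest of the 10 genes. Its coding length of 2337 bases brought its level to 3041 normalized counts per kb, the seventh of the 10. On that scale *CIT1*, which acts one step earlier, was 2.45 times as high as *ACO1*, and 1.51 times without division by length.

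*IDH1* (YNL037C) and *IDH2* (YOR136W) encode the regulatory and the catalytic subunit of the NAD-dependent isocitrate dehydrogenase. *IDH1* had a mean of 4385 normalized counts, or 4049 per kb. *IDH2* had 4012 normalized counts, or 3615 per kb. The messages of these subunits, which assemble in equal numbers, thus stood at a ratio per kb of 1.12 for *IDH1* over *IDH2*.

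*KGD1* (YIL125W) and *KGD2* (YDR148C) encode the first and second components of the 2-oxoglutarate dehydrogenase complex, which releases carbon dioxide and makes succinyl-CoA. *KGD1* had a mean of 3100 normalized counts over 3045 bases, the longest coding sequence of the 10 genes. Its level of 1018 normalized counts per kb was the lowest of the 10, at percentile 93.5 (the share of genes with a lower level). On that scale it was the one gene below the highest 5% of all genes. Without division by length *KGD1* lay within the highest 5%, at percentile 97.9, and *KGD2* was the lowest of the 10. *KGD2* had a mean of 2852 normalized counts, or 2049 per kb, the second lowest. Per kb, *KGD2* was thus 2.01 times as high as *KGD1*, whereas without division by length the ratio was 0.920. The order of the pair therefore depended on the length correction.

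*LSC1* (YOR142W) and *LSC2* (YGR244C) encode the alpha and beta subunits of succinyl-CoA ligase, which makes ATP directly in the cycle. *LSC1* had a mean of 3115 normalized counts, or 3146 per kb. *LSC2* had 3735 normalized counts, or 2909 per kb. The ratio of *LSC1* to *LSC2* was 1.08 per kb and 0.834 without division by length, so that the order of these subunits also turned with the length correction.

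*FUM1* (YPL262W) encodes fumarase, which hydrates fumarate to malate and is found both in mitochondria and in the cytosol. It had a mean of 6028 normalized counts, or 4109 per kb, the second highest level of the 10 genes. *MDH1* (YKL085W) encodes mitochondrial malate dehydrogenase, which closes the cycle by making oxaloacetate. It had a mean of 3154 normalized counts, or 3138 per kb. Per kb, *FUM1* was 1.31 times as high as *MDH1*.

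In descending order per kb, the genes stood as *CIT1*, *FUM1*, *IDH1*, *IDH2*, *LSC1*, *MDH1*, *ACO1*, *LSC2*, *KGD2* and *KGD1*. The whole range was 7.32-fold. Between *FUM1* and *KGD2*, the 8 genes left when *CIT1* and *KGD1* are set aside spanned 2.01-fold. Neighbours from *FUM1* down to *LSC2* differed by 1.00-fold to 1.15-fold. Since no spread between cultures can be computed from a pooled mean, whether neighbours in this order differ could not be tested.

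**Figure D2:**
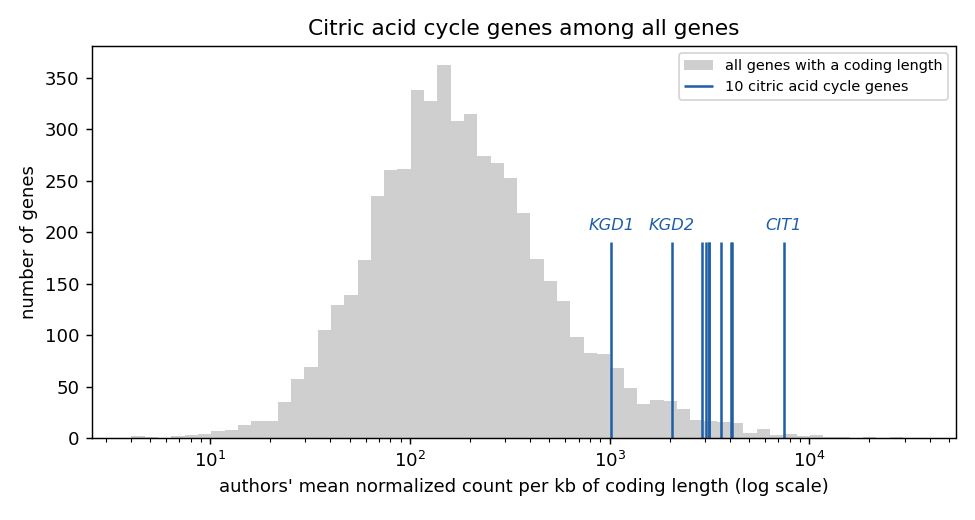
Number of genes (bars) by the authors' mean normalized count per kb of coding length (log scale), with the 10 citric acid cycle genes as vertical lines whose height has no meaning. The 10 genes lie at the upper end of the distribution, from *KGD1* at 1018 to *CIT1* at 7458.

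The order of the genes differed between counts with and without division by length. The coding lengths of the 10 genes ranged from 990 bases (*LSC1*) to 3045 bases (*KGD1*). Counts without division by length spanned 3.77-fold, from *KGD2* to *CIT1*. *CIT1* was the highest of the 10 on both scales. None of the 10 coding sequences is spliced, and their GC content ranged from 39.7% (*CIT1*) to 45.3% (*MDH1*), against a median of 39.7% over all genes. No stretch of 31 bases in any of the 10 coding sequences occurs in another coding sequence of the S288C reference, also not between *CIT1* and its homologues.

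**Figure D3:**
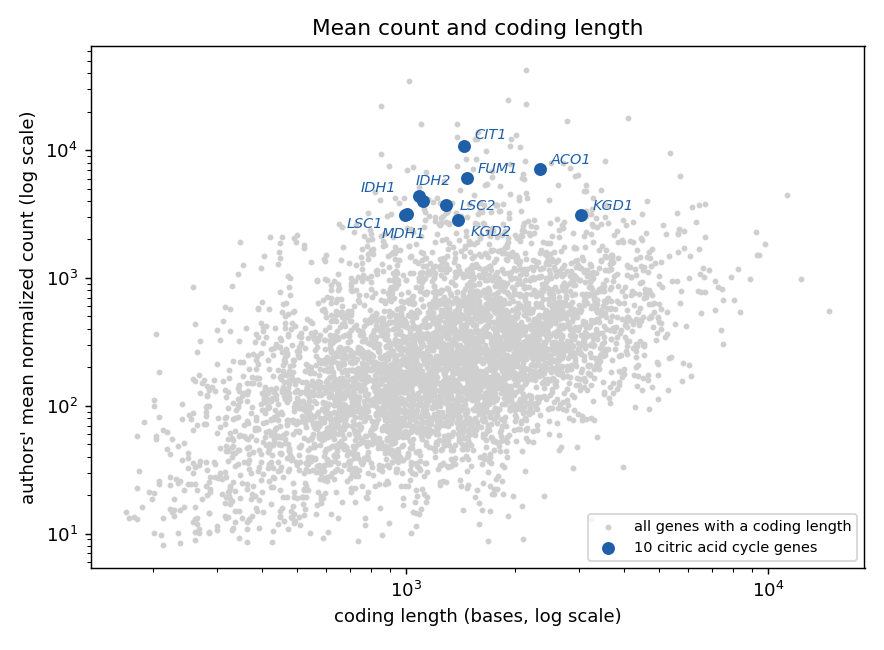
Authors' mean normalized count (log scale) against coding length in bases (log scale) for all genes with a coding length (grey) and the 10 citric acid cycle genes (blue). *KGD1* and *ACO1*, with 3045 and 2337 bases, are the longest of the 10, and *CIT1* has the highest mean count, 10740.

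Other genes of the pathway were described from lists. *LPD1* encodes the dihydrolipoamide dehydrogenase that serves the 2-oxoglutarate and pyruvate dehydrogenase complexes. *KGD2* stood at 1.64 times and *KGD1* at 0.815 times the level of *LPD1*, which had 1250 normalized counts per kb. Without division by length the ratio of *KGD1* to *LPD1* was 1.65, so that the order of this pair turned. *KGD2* was 5.09 times as high as *KGD4*, whose short product links components of the 2-oxoglutarate dehydrogenase complex and which had 402.8 normalized counts per kb. With a coding length of only 372 bases, the value of *KGD4* depends strongly on how length is treated, and the ratio was 2.75 when 200 bases were taken off each coding length and 19.0 without division by length.

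Succinate dehydrogenase, the membrane enzyme between succinyl-CoA ligase and fumarase, is encoded by *SDH1* to *SDH4*. These 4 genes had levels between 906.1 (*SDH3*) and 2442 (*SDH4*) normalized counts per kb, with a median of 1884. *LSC1*, *LSC2*, *FUM1* and *MDH1*, which act on either side of this enzyme, were all higher per kb than each of the 4 *SDH* genes. This did not hold without division by length, where *LSC1* (3115) and *MDH1* (3154) lay below *SDH1* (3247), nor with 200 bases taken off each coding length, where *LSC2* (3446 per kb) lay below *SDH4* (3853 per kb). The catalytic subunit gene *SDH1* had 1688 normalized counts per kb.

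Isozymes of the cycle enzymes are encoded by further genes. *CIT1* had 7458 normalized counts per kb, against 9224 for *CIT2*, which encodes the peroxisomal citrate synthase of the glyoxylate cycle, a ratio of 0.809. It stood at 1.28 times the 5812 normalized counts per kb of *CIT3*, which encodes another mitochondrial citrate synthase that also acts on propionyl-CoA. All 3 citrate synthase genes were thus among the highest of all genes, *CIT1* at rank 14, *CIT2* at rank 9 and *CIT3* at rank 22.

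Malate dehydrogenase also has cytosolic and peroxisomal forms. *MDH1* had 3138 normalized counts per kb, against 5931 for *MDH2*, which encodes the cytosolic enzyme used in gluconeogenesis, a ratio of 0.529. *MDH1* was 2.19 times as high as *MDH3*, which encodes the peroxisomal enzyme and had 1435 normalized counts per kb. For the citrate and malate enzymes, the mitochondrial gene of the cycle was therefore not the highest of its family.

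For isocitrate dehydrogenase the genes of the cycle were the highest. The NADP-dependent isocitrate dehydrogenases are encoded by *IDP1* (mitochondrial), *IDP2* (cytosolic) and *IDP3* (peroxisomal). *IDH1* was 11.7 times as high as *IDP1*, 4.24 times as high as *IDP2* and 32.5 times as high as *IDP3*. *IDH2* was 10.4, 3.78 and 29.0 times as high as the same 3 genes. *IDP1* had 346.4, *IDP2* 955.9 and *IDP3* 124.6 normalized counts per kb.

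The glyoxylate branch bypasses the steps that release carbon dioxide, and 2 of its 3 listed genes lay within the range of the cycle genes. *IDH1* and *IDH2* had 4049 and 3615 normalized counts per kb, against 3255 for *ICL1*, which encodes isocitrate lyase, the enzyme that competes with them for isocitrate. Without division by length the order turned, with 4385 and 4012 normalized counts for *IDH1* and *IDH2*, against 5449 for *ICL1*. *MLS1* (malate synthase) had 5873 normalized counts per kb, and 9779 normalized counts without division by length. *DAL7*, the malate synthase gene of allantoin breakdown, had 28.6 normalized counts per kb, at percentile 2.84 of all genes.

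Among 11 genes by which carbon enters the cycle, 7 lay at or above the lowest citric acid cycle gene per kb and 4 below it, whereas without division by length 4 lay above and 7 below. *ACS1*, which encodes an acetyl-CoA synthetase used on acetate, had the highest mean count of all genes, 42628, or 19901 per kb, above each of the 10 cycle genes. *ACH1*, which encodes a mitochondrial CoA-transferase that acts on acetate, had 8757 normalized counts per kb. The pyruvate dehydrogenase complex genes *PDA1*, *PDB1*, *LAT1* and *PDX1* had 2427, 1931, 1185 and 507.3 normalized counts per kb. *PYC1*, which encodes a pyruvate carboxylase that refills oxaloacetate, had 2341 normalized counts per kb, and its paralog *PYC2* had 420.5. The mitochondrial pyruvate carrier genes *MPC1*, *MPC2* and *MPC3* had 417.9, 543.5 and 2930 normalized counts per kb, and *MPC3* encodes the subunit known from respiratory growth.

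**Figure D4:**
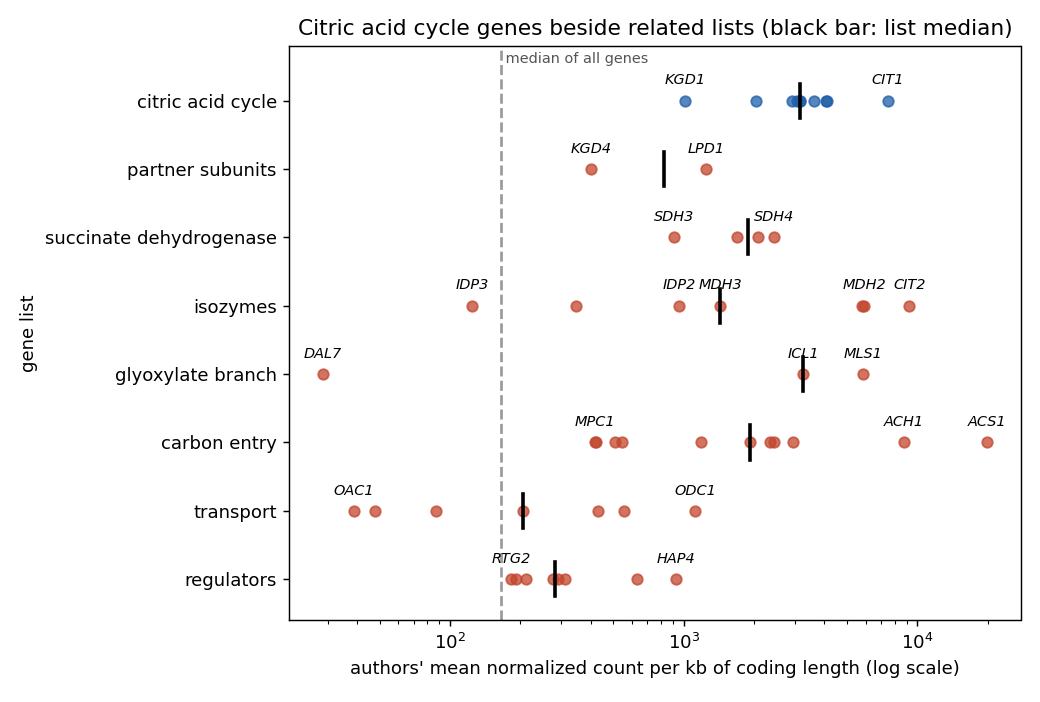
Level of each gene in the 10 citric acid cycle genes (blue) and in 7 related lists (red), as the authors' mean normalized count per kb of coding length (log scale). Black bars are list medians and the dashed line is the median of all genes; the citric acid cycle median is 3142, and those of the transport and regulator lists are 204.7 and 282.8.

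Carriers that move intermediates of the cycle across the inner membrane were lower than the enzymes. All 7 listed carrier genes had a row, with a median of 204.7 normalized counts per kb, 1.24 times the median gene. Without division by length their median of 183.6 normalized counts lay below that of all genes, 218.9. The highest per kb was *ODC1* (2-oxodicarboxylate carrier) with 1120 normalized counts per kb, and the other 6 lay below *KGD1* on that scale. Without division by length all 7 lay below the lowest cycle gene. *SFC1*, the succinate-fumarate carrier gene, had 555.5 normalized counts per kb, and *OAC1*, the oxaloacetate carrier gene, had 38.7.

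Per kb, all 8 listed regulator genes lay above the median gene and below the lowest citric acid cycle gene. Without division by length *HAP3* and *HAP5* fell below the median gene, and with 200 bases taken off *RTG2* did; all 8 stayed below the lowest cycle gene on both scales. *HAP4*, whose product is the activating and carbon-regulated subunit of the Hap complex, was the highest with 926.3 normalized counts per kb. *HAP2*, *HAP3* and *HAP5*, which encode the DNA-binding subunits, had 275.3, 212.4 and 192.5. *RTG1*, *RTG2* and *RTG3* had 629.2, 183.1 and 290.2 normalized counts per kb, and *MKS1*, a negative regulator of the retrograde pathway, had 310.9.

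The letters bound by these regulators were searched on both strands from 250 bases before to 50 bases after the first coding base in the S288C reference. The letters CCAAT, the core of the Hap site, occurred in 5 of the 10 windows (*ACO1*, *IDH1*, *IDH2*, *FUM1* and *MDH1*), against 44.1% of the windows of 5276 genes. *MDH1* had 2 matches and the other 4 genes had 1 each. The letters GTCAC, the core of the site of Rtg1 and Rtg3, occurred in 4 of the 10 windows (*KGD1*, *LSC1*, *LSC2* and *FUM1*), against 26.6% of all windows, and *FUM1* had 2 matches. *CIT1* and *KGD2* had neither in this window. These matches are a description of the window in another strain, and binding was not measured.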

How the data were processed

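RNA-Seq libraries of 3 *SPO11* and 3 *spo11-YF* cultures were grouped by the genotype in the sample labels. Per the labels and the methods of the study, the authors trimmed reads with Trim Galore, mapped them to the SK1 genome in the nf-core pipeline with STAR and used estimated counts per gene from Salmon. The authors then adjusted batches with ComBat-Seq and ran DESeq2 to set the strains against each other. Tool versions are not given in the sources used here. The deposited table has 5297 rows, of which 1 names no gene (0.00559% of the counts) and was left out. The signal used is the authors' mean of normalized counts over all libraries. A batch adjustment changes counts before they are averaged, and means of size-factor-scaled counts are not corrected for gene length. The other 5 columns hold the authors' own comparison of the strains (log2 fold change, its standard error, statistic, p-value and adjusted p-value) and were not used, so no test between strains was made.

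Coding lengths, GC content, shared stretches of 31 bases and promoter windows were computed from the RefSeq S288C assembly R64, to which 5276 of the 5296 named genes matched by systematic name. The other 20 have no level per kb. As the authors used SK1, no coordinates are given. Lengths do not include untranslated regions. Percentiles and ratios are descriptions. The 10 members and the gene lists were chosen with earlier results of these data known; all members and the listed partner, isozyme, entry, transport, regulator and marker genes were eligible to be named. 1 gene of these lists was left out and is not reported here, and values are printed for a part of the others. Short versions of the percentile and motif calculations were checked on made-up input. The functions used for the genes were not themselves run on it. Calculations ran in Python 3.11.15 with pandas 2.3.3, numpy 2.4.6 and scipy 1.17.1, and plots were drawn with matplotlib 3.10.9. Alternatives were no length correction, coding length less 200 bases, genes with a mean of 10 or more, omission of the 20 highest genes, and a promoter window of the 250 bases before the gene.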

Additional observations from a re-analysis of the deposited data

How the results depend on the processing

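No paired analysis was possible because the mean pools the 6 libraries. Leaving out each replicate was likewise not run, and no precision can be given. *CIT1* was the highest of the 10 genes with and without division by length, at 45.2 and 49.1 times the median gene. The lowest was *KGD1* per kb (6.17 times) and with 200 bases taken off (5.19 times), and *KGD2* without division (13.0 times). Percentiles lay between 93.5 and 99.7 per kb and between 97.6 and 99.7 without division. The share held by the 10 genes was 1.75%. It was 1.55% without the 20 highest genes, because *CIT1* is 1 of these, and 1.99% when *CIT1* was kept, an alternative chosen after seeing the data. The ratio of *KGD2* to *KGD1* was 0.920 without division and 2.20 with 200 bases taken off, and that of *LSC1* to *LSC2* was 0.834 and 1.14; without division both lie on the other side of 1, since the genes of each pair differ in length. The ratio of *IDH1* to *IDH2* was 1.09 and 1.13. Of the 7 isozymes compared, none changed sides against its counterpart in either setting. In the 250 bases before the gene, CCAAT occurred in 4 of the 10 windows against 36.0% of all, and GTCAC in 3 against 21.8%.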

Other observations

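Several genes that bring acetyl units to the cycle also stood high per kb, from rank 2 (*ADY2*) to rank 38 (*CRC1*). They were named after their values were seen. Genes of other kinds stood there too, such as *SED1*, *UTH1*, *PRB1* and *TEF2* at ranks 1, 4, 5 and 6. *ADY2*, which encodes an acetate transporter, had 26221 normalized counts per kb, rank 2 of all genes, and *ACS1* had 19901, rank 3. The carnitine shuttle carries acetyl groups into mitochondria. Its acetyltransferase genes *CAT2*, *YAT2* and *YAT1* had 6570, 6132 and 5161 normalized counts per kb, and the carrier gene *CRC1* had 4288. On that scale *CIT1*, the highest gene of the cycle, lay above all 4, at 7458. *FUM1*, the second highest gene of the cycle per kb, lay below all 4, at 4109. Without division by length *FUM1* had 6028 normalized counts, above *CRC1* with 4219. *CIT1* then had 10740, below *CAT2* with 13226 and *YAT2* with 16997. *POR1*, which encodes the porin of the mitochondrial outer membrane, had 10941 normalized counts per kb at rank 7.

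*PDH1*, which encodes a mitochondrial 2-methylcitrate dehydratase and has the systematic name next to that of *CIT3* (YPR002W and YPR001W), had 7913 normalized counts per kb at rank 12, against 5812 at rank 22 for *CIT3*. These are levels in both strains pooled, with no replicate error.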
